A study of Mus musculus with 19 samples.

Results

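Gene expression was compared between leukemic mice given 5-azacytidine (5-Aza) and leukemic mice given vehicle, in 8 of the 19 RNA libraries of the series. The 8 are all libraries whose labels name the Tet2-/-;Flt3 genotype: 4 from mice treated with 5-Aza (AZ10, AZ11, AZ16 and AZ17, after the column headings of the count table) and 4 from mice treated with vehicle (V1, V5, V5-2 and V19). All 8 came from C57BL/6 mice without functional Tet2 that carry the internal tandem duplication of Flt3, which the genotype label spells Flt3-IDT, and the series describes these mice as having acute myeloid leukemia. RNA was taken from primary, uncultured cells sorted as lin-Sca+cKit+, the fraction that holds hematopoietic stem cells and early progenitors. Mice of the 5-Aza group were injected into the peritoneum with 5 mg/kg on each of 5 days of a 21-day cycle, for 4 cycles; the series text adds the name decitabine, a related drug, beside 5-azacytidine. The other 11 libraries come from wild-type mice (WT, 4), and from Idh2 R140Q;Flt3-ITD leukemic mice given vehicle (3) or AG-221, an inhibitor of mutant IDH2 (4). The labels do not name an animal for each library, so a p-value here covers the variation among these libraries and may not reflect that among animals. They also do not say what drives loss of Tet2, or whether V5 and V5-2, whose headings share a number, share an animal. The same holds for V3 and V3-2 among the vehicle libraries of the Idh2 R140Q;Flt3-ITD mice.

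5-azacytidine is an analog of cytidine. Cells phosphorylate it through the salvage pathway and build it into RNA and, after reduction, into DNA, where it traps the DNA methyltransferases that methylate cytosine in CG dinucleotides. TET2 acts on the same base in the opposite direction, as a dioxygenase that oxidises 5-methylcytosine, and the duplicated FLT3 receptor signals without its ligand. In normal marrow the earliest progenitors branch towards erythroid and megakaryocytic cells under GATA1 and GATA2, or towards monocytes and dendritic cells under PU.1, IRF8 and BATF3. DNA methylation was not measured in these libraries.

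Assigned counts were 12109035 to 13133042 in the 5-Aza libraries and 9635795 to 20383132 in the vehicle libraries. The vehicle libraries were the less alike: the SD of the log2 ratio between a pair of them, over all tested accessions, was 1.04 to 1.69, against 0.683 to 0.866 between 5-Aza libraries. V1 had the lowest scaling factor (0.761), the fewest detected accessions (12088) and 9.69% of its counts in accessions without a gene name, and V5-2 had the highest scaling factor (1.20), the most detected accessions (15509) and 0.975% without a name; in the other 6 libraries that share was 2.73% to 5.34%. No pair of the 8 was a copy of the other by chi-square. The sort could be checked only in part, since Ly6a, which encodes Sca-1, Kit and other genes such as S100a9 and Hba-a1 read 0 in all 8 libraries in this table. Cd34 and the stem cell gene Procr were detected in all 8, endothelial markers summed to at most 2.63 CPM (counts per 1000000 assigned counts, scaled) and stromal markers to at most 2.10 CPM, and the CD3 genes of T cells Cd3e, Cd3d and Cd3g each stayed under 2 CPM. Other marker lists were far from 0: Nkg7, a granule gene of NK and T cells, read 238 to 3298 CPM, and neutrophil markers summed to 164 to 2133 CPM with vehicle and 453 to 1560 CPM with 5-Aza. Monocyte and macrophage markers summed to 352 to 837 CPM with vehicle and 169 to 353 CPM with 5-Aza. WT cells of the same gate were not near 0 either, with Nkg7 at 822 to 1292 CPM. Their neutrophil markers summed to 1413 to 3807 CPM, and their monocyte and macrophage markers to 117 to 582 CPM. The part of such cells in the results was not tested. In RNA from pooled cells, fewer cells of a type and less RNA per cell cannot be told apart, here and in every result that follows.

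**Figure D1:**
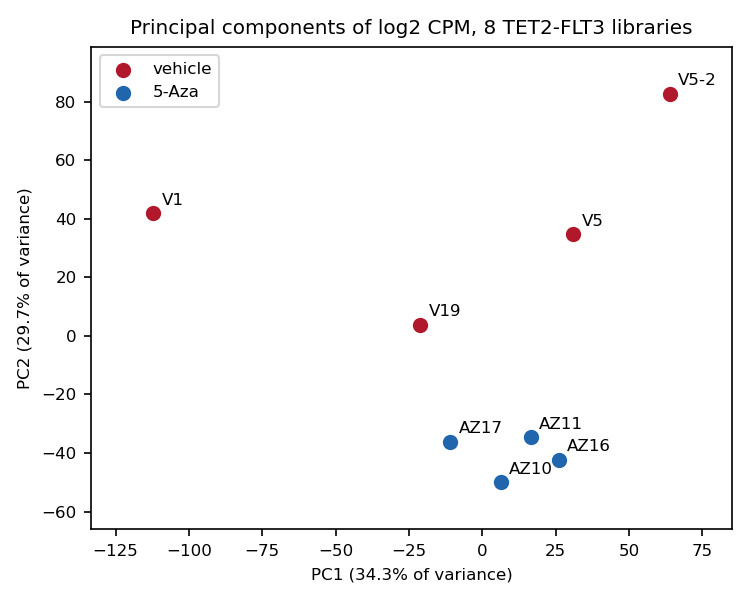
Principal components 1 and 2 of the log2 CPM of all tested accessions in the 8 libraries, with each component's share of the variance on its axis; red points are vehicle and blue points 5-Aza libraries. The 4 vehicle libraries lie above 0 on the second component (29.7% of the variance) and the 4 5-Aza libraries below it, while the first (34.3%) runs from V1 to V5-2.

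Expression of 11830 accessions was tested with edgeR's quasi-likelihood test, and those with a Benjamini-Hochberg adjusted p under 0.05 were called. With 5-Aza, 51 accessions were higher (0.431% of those tested) and 171 were lower (1.45%) than with vehicle, while the median log2 fold change of all tested accessions was -0.05. The called changes were large: all 51 higher accessions changed by more than 2-fold and 33 by more than 8-fold, with a median log2 fold change of 3.34, and 169 of the 171 lower ones changed by more than 2-fold and 98 by more than 8-fold, with a median of -3.41. Levels in the 4 and the 4 libraries did not overlap for 335 accessions that were higher (2.83%) and 504 that were lower (4.26%); of the called ones, 44 of 51 and 164 of 171 did not overlap. Of 40 gene lists, those of type 1 conventional dendritic cells (15) and of interferon-induced genes (12) held the most lower calls, and the erythroid list (9) the most higher calls. The type 1 dendritic list was drawn up after the leading genes had been seen, so its rank was favoured in advance and is not evidence. All 40 lists were chosen with earlier results of these data known, so the ranks of the interferon and erythroid lists are not independent evidence either. In 8 further fits that each left out 1 library, 9 of the 51 higher and 47 of the 171 lower accessions were called every time; without AZ16 the calls were 9 higher and 48 lower, and without AZ10 they were 18 and 63. Without AZ11 there were 44 higher and 99 lower calls, and without AZ17 there were 37 and 96. Without V5-2 there were 19 and 133, without V5 there were 29 and 106, without V1 there were 33 and 155, and without both V1 and V5-2 there were 6 and 53.

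**Figure D2:**
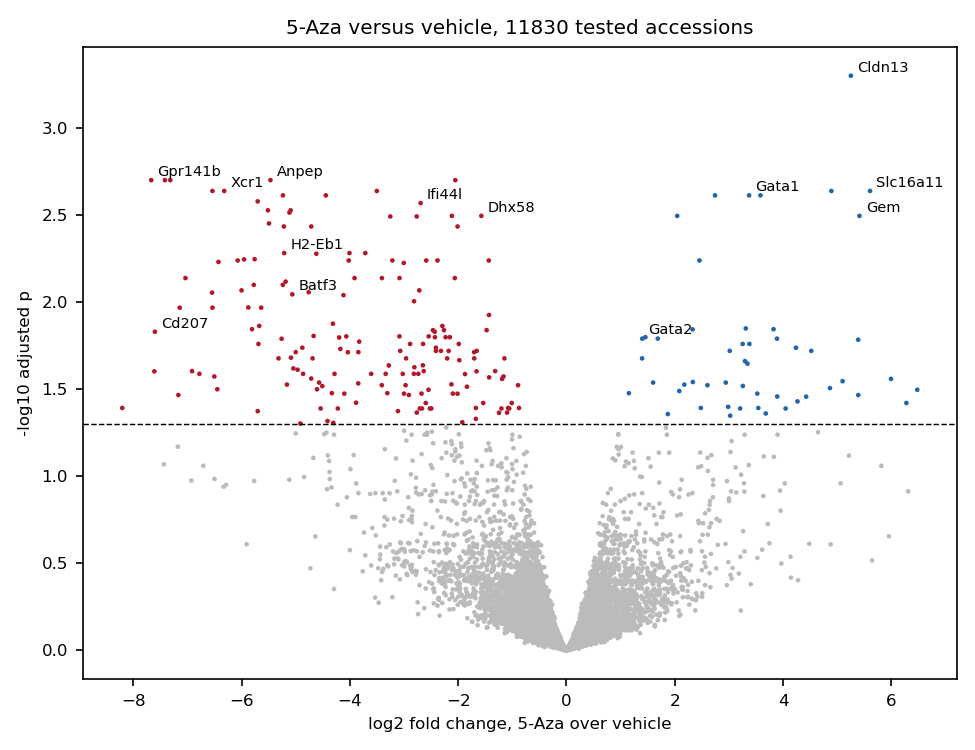
Log2 fold change of 5-Aza over vehicle (horizontal) against -log10 of the adjusted p (vertical) for 11830 tested accessions; the dashed line is an adjusted p of 0.05, blue points are called higher and red points called lower. The lower calls (171) outnumber the higher ones (51), and both lie mostly more than 2-fold from 0.

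Type 1 conventional dendritic cells, which take up dead cells and present their antigens to CD8 T cells, depend on BATF3 and IRF8 and are recognised by XCR1, CD103 (Itgae) and TLR3. Of 23 tested genes on a list of this cell type, which was drawn up after the leading genes had been seen, 15 fell with 5-Aza and none rose, with a median log2 fold change of -4.10. The summed level of the list was 10537, 14361, 7689 and 6339.7 CPM in V1, V5, V5-2 and V19 and 2010.4, 2443, 2275 and 1992 CPM in AZ10, AZ11, AZ16 and AZ17, an order of libraries kept below. Xcr1, the receptor for the chemokine XCL1, read 213, 263, 134 and 103 CPM with vehicle and 1.05, 2.26, 3.57 and 1.98 CPM with 5-Aza. Every 5-Aza library lay far under every vehicle library (log2 fold change -6.32 ± 0.97, adjusted p = 0.00229). Itgae, the integrin that binds E-cadherin, gave 89.7, 55.5, 60.01 and 49.8 CPM with vehicle and 0.324, 0.243, 0.379 and 0.632 CPM with 5-Aza (log2 fold change -7.32 ± 1.06, adjusted p = 0.00199), V1 being the highest. Tlr11, a receptor for profilin and flagellin of microbes, gave 34.9, 100.1, 139 and 38.8 CPM and 0.324, 0.889, 0.228 and 0.361 CPM (log2 fold change -7.41 ± 1.01, adjusted p = 0.00199); V5 and V5-2 were highest and the groups did not overlap. Tlr3, the endosomal sensor of double-stranded RNA, was also highest in V5 and V5-2, with 40.5, 128, 117 and 38.2 CPM against 1.05, 2.99, 2.81 and 1.8 CPM (log2 fold change -5.22 ± 0.90, adjusted p = 0.00366). Batf3, the transcription factor that this lineage needs, gave 27.1, 38.1, 28 and 27.8 CPM with vehicle and 0.324, 1.37, 0.304 and 1.62 CPM with 5-Aza (log2 fold change -5.06 ± 0.98, adjusted p = 0.00900). The Batf3 call ended without AZ16 (adjusted p up to 0.0577).

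Further members of that list that fell were Anpep, an aminopeptidase of the cell surface, at -5.47 ± 0.77, Septin3 at -5.49 ± 0.93, Jaml, an adhesion molecule, at -5.51 ± 0.90, and Ifi205 at -5.95 ± 1.07. Itgax, which encodes CD11c, gave 19.9, 39.4, 77.8 and 13.3 CPM with vehicle and 2.02, 2.75, 1.52 and 2.71 CPM with 5-Aza (log2 fold change -4.06 ± 0.85, adjusted p = 0.0157), with no overlap. The Itgax call ended without AZ10 or AZ16 (adjusted p up to 0.0738). Cst3, the protease inhibitor cystatin C and an abundant transcript of dendritic cells, gave 7086, 9020.0, 3463 and 3732 CPM and 957, 1018, 1094 and 597 CPM (log2 fold change -2.67 ± 0.67, adjusted p = 0.0407), again without overlap. The Cst3 call ended without AZ10, AZ11, AZ16, AZ17, V1 or V5 (adjusted p up to 0.133). Cxcr3, a chemokine receptor, fell at -4.1 ± 0.99. The Cxcr3 call ended without AZ10, AZ11, AZ16, AZ17, V5-2 or V5 (adjusted p up to 0.118). Of the 15 calls, 10 held in each of the 8 fits that left out 1 library. Irf8, the factor that acts with BATF3, was read at a low level from 1 of its 2 accessions, with 0.818, 2.57, 1.15 and 1.82 CPM against 0.243, 0.0808, 0 and 0.0902 CPM, and did not pass (log2 fold change -3.84 ± 1.2, adjusted p = 0.125). Zbtb46, a factor of all conventional dendritic cells, did not pass either, with 8.04, 4.93, 6.11 and 3.74 CPM against 0, 0.647, 0.152 and 1.17 CPM (log2 fold change -3.53 ± 1.1, adjusted p = 0.125). Neither gene overlapped between the groups, and Id2, a helix-loop-helix inhibitor needed by this lineage, was at -2.47 ± 0.76 (adjusted p = 0.122).

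The 250 bases before the annotated starts of Xcr1 and Batf3 are shown as examples that differ in CG dinucleotides, the sites that DNA methyltransferases act on. The windows here and below were picked by hand, and any part of CG content in the changes was not tested. Sequences are from RefSeq's GRCm38.p6 table, run 5′ to 3′ on the gene's strand and end at the base before the start. Capitals mark CG. The Xcr1 window (chr9:123862030-123862279, minus strand) holds 5 CG and the Batf3 window (chr1:191098164-191098413, plus strand) holds 27.
Xcr1: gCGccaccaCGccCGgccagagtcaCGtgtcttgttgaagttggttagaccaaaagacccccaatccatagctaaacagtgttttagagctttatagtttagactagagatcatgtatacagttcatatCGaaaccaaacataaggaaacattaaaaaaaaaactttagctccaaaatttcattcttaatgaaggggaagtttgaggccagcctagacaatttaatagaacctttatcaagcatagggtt
Batf3: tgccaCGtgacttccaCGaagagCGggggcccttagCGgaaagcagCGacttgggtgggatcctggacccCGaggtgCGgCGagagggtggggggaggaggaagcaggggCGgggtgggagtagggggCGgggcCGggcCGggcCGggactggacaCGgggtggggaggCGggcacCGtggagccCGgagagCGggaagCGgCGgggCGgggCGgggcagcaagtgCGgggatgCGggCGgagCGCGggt
Among 27018 genes of that table, 91.7% of the windows hold at least 1 CG on either strand and the median is 6. These genes include ones not tested here, so their CG content, here and below, is no reference for the tested genes. Only 39 of the 50 genes called higher, 131 of the 171 called lower and 8962 of the 11455 tested could be matched to a window. These are under 80% of each set, the limit kept here, so CG content is not compared between the sets and nothing is concluded about it.

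A second list, of dendritic cells in general, had 19 tested members, of which 8 are also on the first; 6 fell and none rose, with a median log2 fold change of -3.09. Cd209a, a lectin of monocyte-derived and other dendritic cells, gave 60.7, 73.5, 23.5 and 18 CPM with vehicle and 0.647, 4.2, 0.911 and 3.07 CPM with 5-Aza (log2 fold change -4.31 ± 0.87, adjusted p = 0.0133), with no overlap. The Cd209a call ended without AZ10 or AZ16 (adjusted p up to 0.0686). Siglech, the marker of plasmacytoid dendritic cells, overlapped between the groups, with 9.82, 8.57, 3.61 and 0.768 CPM against 0.0809, 0.808, 0.152 and 1.62 CPM, and did not pass (log2 fold change -3.09 ± 1.21, adjusted p = 0.27). Flt3, the receptor that these cells require and that is engineered in these mice, also overlapped, with 219, 299, 666 and 364 CPM against 159.8, 304, 137 and 316 CPM (log2 fold change -0.76 ± 0.41, adjusted p = 0.469). Outside the 2 lists, the rule for named genes picked Cd207, the lectin langerin, which gave 28, 4.59, 2.26 and 4.51 CPM and 0.0809, 0, 0.0759 and 0 CPM (log2 fold change -7.6 ± 1.51, adjusted p = 0.0148), with V1 far above the other vehicle libraries. The Cd207 call ended without AZ10, AZ16 or AZ17 (adjusted p up to 0.0645). Plbd1, a lysosomal phospholipase-like protein picked after its values were seen, gave 736, 393, 754 and 271 CPM against 4.85, 16, 5.39 and 15.2 CPM (log2 fold change -5.7 ± 0.91, adjusted p = 0.00263), and Gpr141b, an orphan receptor, gave 49.5, 103, 73.7 and 30.2 CPM against 0, 0.243, 0.531 and 0.451 CPM (log2 fold change -7.67 ± 1.12, adjusted p = 0.00199). For both, the lowest vehicle library was more than 10 times the highest 5-Aza library.

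MHC class II molecules carry peptides from endosomes to the cell surface, with the invariant chain CD74 as their chaperone and H2-DM as the peptide exchanger. None of the 12 tested members of this pathway had a log2 fold change above 0, beside 5448 of all 11830 tested accessions. Of the 12, 5 fell and the median was -1.85. H2-Ab1, the beta chain of the I-A molecule, gave 3662, 4876, 2968 and 1367 CPM with vehicle and 96.4, 155, 109.9 and 163 CPM with 5-Aza (log2 fold change -4.62 ± 0.82, adjusted p = 0.00525). Its partner H2-Aa gave 3344, 4024, 2734 and 1107 CPM against 35.9, 103, 53.5 and 221 CPM (log2 fold change -4.76 ± 0.92, adjusted p = 0.00875). The I-E beta chain H2-Eb1 gave 2039, 2890.3, 2105 and 954 CPM against 24.3, 66, 35.4 and 89.8 CPM (log2 fold change -5.21 ± 0.92, adjusted p = 0.00521). In all 3 genes V5 was the highest and V19 the lowest vehicle library, and no 5-Aza library reached V19. Cd74, read from 1 of its 2 accessions, gave 10.4, 349, 121 and 26.6 CPM against 1.29, 4.37, 3.87 and 5.41 CPM (log2 fold change -5.09 ± 1.13, adjusted p = 0.0208), with V5 far above the others. H2-DMb1 gave 218, 329.8, 194 and 102 CPM against 40.7, 44.2, 48.6 and 76 CPM (log2 fold change -2.01 ± 0.49, adjusted p = 0.0335), without overlap. The calls ended for H2-Aa without AZ16 (adjusted p up to 0.0577), for Cd74 without AZ10, AZ11, AZ16, AZ17 or V5 (adjusted p up to 0.0887) and for H2-DMb1 without AZ10, AZ11, AZ16, AZ17, V1 or V5 (adjusted p up to 0.123). Ifi30, the lysosomal thiol reductase that unfolds antigens, was at -1.69 ± 0.50 (adjusted p = 0.104), and Ciita, the transactivator of these genes, was near the limit of detection in both groups, at 0, 1.01, 0.205 and 1.44 CPM against 0, 0.485, 0.228 and 0.361 CPM.

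The window before H2-Eb1 (chr17:34305617-34305866, plus strand) is shown as an example that holds 0 CG.
H2-Eb1: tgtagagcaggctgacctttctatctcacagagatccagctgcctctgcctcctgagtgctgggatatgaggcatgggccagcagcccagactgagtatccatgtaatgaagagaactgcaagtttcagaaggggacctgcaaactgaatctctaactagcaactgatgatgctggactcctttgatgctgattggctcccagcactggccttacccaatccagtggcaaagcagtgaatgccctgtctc
Such a window without CG was found for 2230 of the 27018 genes.

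Cd86, Ccl22 and Pld4 are on none of the lists and were picked after their values were seen. The costimulatory ligand Cd86, which antigen-presenting cells show to T cells, gave 57.3, 81.8, 47.8 and 22.7 CPM against 5.26, 7.2, 6.68 and 8.75 CPM (log2 fold change -2.91 ± 0.71, adjusted p = 0.0341). The Cd86 call ended without AZ10, AZ11, AZ16, AZ17, V1 or V5 (adjusted p up to 0.123). Ccl22, a chemokine of mature dendritic cells, gave 8.32, 4.32, 4.02 and 1.82 CPM against 0, 0.0808, 0 and 0.0902 CPM (log2 fold change -6.5 ± 1.51, adjusted p = 0.0267). The Ccl22 call ended without AZ10, AZ11, AZ16, AZ17 or V1 (adjusted p up to 0.112). In both of these genes the highest 5-Aza library lay under the lowest vehicle library. Pld4, an endosomal nuclease of dendritic cells, fell at -3.08 ± 0.65. The Pld4 call ended without AZ10 or AZ16 (adjusted p up to 0.0738).

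All 18 tested monocyte and macrophage genes had negative log2 fold changes, with a median of -1.29, but 2 fell by the test. Over all 11830 tested accessions, 6379 log2 fold changes were negative. Mpeg1, the pore-forming perforin-2 of phagocytes, gave 630.4, 456, 1431 and 315 CPM with vehicle and 10.8, 46.5, 15.1 and 35.7 CPM with 5-Aza (log2 fold change -4.71 ± 0.81, adjusted p = 0.00366). Ccr2, the receptor that draws monocytes out of marrow, gave 527, 685, 318 and 277 CPM against 31.5, 103, 45.1 and 77.9 CPM (log2 fold change -2.81 ± 0.55, adjusted p = 0.00985). The Ccr2 call ended without AZ16 (adjusted p up to 0.0634). Neither gene overlapped between the groups. Csf1r, the receptor for the growth factor of macrophages, overlapped, with 22.1, 63.8, 87.2 and 26.5 CPM against 9.3, 27.8, 7.74 and 23.9 CPM (log2 fold change -1.54 ± 0.55, adjusted p = 0.216). Adgre1, which encodes F4/80, did not pass although the groups did not overlap, with 17.2, 29.8, 26.2 and 17.9 CPM against 0.971, 7.2, 4.25 and 11.4 CPM (log2 fold change -1.94 ± 0.53, adjusted p = 0.0677). The summed level of the 18 genes was 4268, 3696, 3337 and 2059.9 CPM with vehicle and 876, 1588, 1134 and 1855 CPM with 5-Aza, all 4 vehicle libraries being above all 4 5-Aza libraries. Mpo, the peroxidase of granulocyte-monocyte progenitors, overlapped and did not pass (log2 fold change -0.84 ± 0.58, adjusted p = 0.594).

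Among 18 tested myeloid transcription factors, 2 fell, Batf3 and Irf4, and the median was -1.09. Irf4, a factor of type 2 dendritic cells and lymphocytes, gave 7.36, 6.89, 11.5 and 3.74 CPM against 0.971, 1.54, 1.21 and 1.17 CPM (log2 fold change -2.59 ± 0.47, adjusted p = 0.00575), without overlap. The Irf4 call ended when V1 and V5-2 were both left out (adjusted p = 0.0692, edgeR). Spi1, which encodes PU.1, overlapped because V5 read under 3 of the 5-Aza libraries; its levels were 73.5, 24.2, 258 and 48.7 CPM against 33.1, 35, 21.3 and 30.6 CPM (log2 fold change -1.75 ± 0.69, adjusted p = 0.276). Of 20 NF-kB and inflammatory genes 2 fell. Ccl3, the chemokine MIP-1 alpha, gave 38.9, 28.8, 15.4 and 24.7 CPM against 1.38, 6.47, 0.607 and 4.24 CPM (log2 fold change -3.08 ± 0.58, adjusted p = 0.00725), and Cxcl16 gave 13.6, 9.72, 13 and 10.6 CPM against 1.21, 0.728, 0.607 and 0.722 CPM (log2 fold change -3.83 ± 0.82, adjusted p = 0.0168). Neither overlapped, and the Cxcl16 call ended without AZ11, AZ16 or AZ17 (adjusted p up to 0.0808). Of 31 apoptosis regulators, 2 fell, both copies of the survival gene A1. Bcl2a1a gave 30.1, 29, 12.5 and 13.6 CPM against 0.0809, 0.485, 0.304 and 0.361 CPM (log2 fold change -6.07 ± 1.11, adjusted p = 0.00575) and Bcl2a1d gave 9.82, 11.6, 6.93 and 3.17 CPM against 0.0809, 0, 0.228 and 0.271 CPM (log2 fold change -5.69 ± 1.22, adjusted p = 0.0173). These copies are near-identical, so reads may be split between them, and the Bcl2a1d call ended without AZ10, AZ11 or AZ16 (adjusted p up to 0.0720).

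Genes induced by interferon include sensors, antiviral effectors and chemokines, and their promoters often hold an interferon-stimulated response element. Of 52 tested genes of this kind, 12 fell with 5-Aza and none rose. Of all 11830 tested accessions 6379 had a negative log2 fold change, and of these 52 genes 49 had one, with a median of -0.89. The summed level was 5728, 7591, 5414 and 4387 CPM with vehicle and 3329, 3714, 3913 and 3845 CPM with 5-Aza. All 4 vehicle libraries were above all 4 5-Aza libraries, with a gap smaller than for the dendritic and MHC class II lists. Ifi44l, an antiviral protein, gave 161, 172, 150.4 and 108 CPM against 16.9, 32.3, 20.3 and 21.9 CPM (log2 fold change -2.69 ± 0.43, adjusted p = 0.00269), and its neighbour Ifi44 gave 227, 380.1, 195 and 139.5 CPM against 39.2, 58.9, 32.1 and 50.5 CPM (log2 fold change -2.38 ± 0.43, adjusted p = 0.00575). Dhx58, which encodes the RNA helicase LGP2, gave 54, 85.3, 99.5 and 44.6 CPM against 18.3, 27.2, 24.4 and 25.6 CPM (log2 fold change -1.57 ± 0.26, adjusted p = 0.00319). Samd9l, a suppressor of translation and growth in myeloid cells, gave 174, 137, 145 and 119 CPM against 57.4, 54.9, 49.1 and 51.2 CPM (log2 fold change -1.43 ± 0.26, adjusted p = 0.00575). The Samd9l call ended when V1 and V5-2 were both left out (adjusted p = 0.0676, edgeR). Each of these 4 genes was lower in every 5-Aza library than in every vehicle library.

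Ifi204, a sensor of DNA, gave 27.3, 28.6, 23.6 and 13.9 CPM against 0.971, 4.37, 0.986 and 1.89 CPM (log2 fold change -3.5 ± 0.53, adjusted p = 0.00229). Slfn1, a growth regulator of the Schlafen family, gave 20.6, 16.5, 8.74 and 4.8 CPM against 0.647, 2.02, 0.683 and 0.451 CPM (log2 fold change -3.71 ± 0.66, adjusted p = 0.00521). Cxcl10, the chemokine that binds CXCR3, gave 26.2, 21.9, 15.4 and 23.9 CPM against 2.26, 6.31, 2.58 and 7.04 CPM (log2 fold change -2.26 ± 0.47, adjusted p = 0.0145). These 3 did not overlap between the groups either, and the Cxcl10 call ended without AZ10 or AZ16 (adjusted p up to 0.0738). Ifit1, which binds viral RNA caps, gave 46.9, 53.7, 25.6 and 25.8 CPM against 11.7, 15.1, 10.4 and 10.9 CPM (log2 fold change -1.66 ± 0.36, adjusted p = 0.0190), with V1 and V5 highest. The Ifit1 call ended without AZ10, AZ16, AZ17 or V5 (adjusted p up to 0.0887). Ifi27l2a gave 298, 99.5, 34 and 76 CPM against 9.3, 16.7, 6.3 and 31.1 CPM (log2 fold change -3.0 ± 0.73, adjusted p = 0.0335), again with V1 highest. The Ifi27l2a call ended without AZ10, AZ11, AZ16, V1 or V5 (adjusted p up to 0.142). Isg15, the ubiquitin-like modifier, did not pass at -1.2 ± 0.34 (adjusted p = 0.0842), nor did Rsad2, the antiviral enzyme viperin, at -1.27 ± 0.39 (adjusted p = 0.116), Gbp2 at -0.67 ± 0.21 (adjusted p = 0.139) or the nucleic acid sensor Zbp1 at -2.62 ± 0.70 (adjusted p = 0.0576). Of the 12 calls 7 held in every fit that left out 1 library. Ifi205 is also on the list of type 1 dendritic cells, which express interferon genes of their own, and the part of the dendritic genes' fall in that of the interferon genes was not tested.

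The window before Ifit1 (chr19:34640639-34640888, plus strand) is shown for its 2 matches to the core of the response element. The core searched was TTTC and TTTC with any 2 bases between them, on both strands (GAAA and GAAA on the other). Capitals mark the matches here, which begin 104 and 85 bases before the start.
Ifit1: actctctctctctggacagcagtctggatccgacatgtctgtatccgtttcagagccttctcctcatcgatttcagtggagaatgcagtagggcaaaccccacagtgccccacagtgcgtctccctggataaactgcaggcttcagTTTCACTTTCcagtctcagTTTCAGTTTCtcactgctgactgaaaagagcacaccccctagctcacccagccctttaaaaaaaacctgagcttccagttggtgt
A match on either strand was found in 17 of the 42 tested interferon-induced genes with a window (40.5%) and in 3.04% of all 27018 genes of the table. A match describes the letters only.

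Of 21 tested sensors of viral RNA and DNA, 5 fell and none rose: Ifi204, Ifi205, Dhx58, Tlr3 and Tlr9. Tlr9, the endosomal sensor of unmethylated CG-rich DNA, gave 0.818, 4.52, 31.5 and 2.11 CPM against 0.0809, 0.728, 0.379 and 0.271 CPM (log2 fold change -4.71 ± 1.1, adjusted p = 0.0274). V5-2 alone was high. The Tlr9 call ended without AZ10, AZ11, AZ16, AZ17 or V5-2 (adjusted p up to 0.16).

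GATA1 is the factor on which erythroid and megakaryocytic cells depend, and it acts on genes for the erythropoietin receptor, the red cell skeleton and the blood group proteins. Of 20 tested erythroid genes, 9 rose with 5-Aza and none fell, with a median log2 fold change of 2.48. Of these 9 calls 3 held in every fit that left out 1 library. The count was 3 without AZ16, V5 or V5-2 in turn, 5 without AZ10, AZ17 or V1 in turn, 2 with limma-voom and 4 with the 8 libraries alone. The summed level of the list was 764, 866, 424 and 744 CPM with vehicle and 1438, 1067, 2348 and 1384 CPM with 5-Aza, without overlap. Gata1 gave 1.09, 2.43, 2.38 and 1.25 CPM with vehicle and 26, 12.3, 28.5 and 9.47 CPM with 5-Aza (log2 fold change 3.37 ± 0.53, adjusted p = 0.00243). AZ10 and AZ16 were highest, and the lowest 5-Aza library was above every vehicle library. Cldn13, a claudin found in rodent erythroid cells, had the smallest adjusted p of all accessions, with 0.136, 0.0675, 0.123 and 0.288 CPM against 3.4, 4.12, 10.7 and 5.41 CPM (log2 fold change 5.25 ± 0.62, adjusted p = 0.000498). Ermap, a membrane protein of red cells, gave 0.136, 0.338, 0.246 and 0.864 CPM against 10.8, 8.17, 15.3 and 13.1 CPM (log2 fold change 4.89 ± 0.75, adjusted p = 0.00229). Neither overlapped, and the calls of Gata1, Cldn13 and Ermap held in each fit that left out 1 library. With limma-voom the adjusted p was 0.0748 for Gata1 and 0.121 for Ermap, so neither passed; the Ermap call also ended when V1 and V5-2 were both left out.

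Epor, the erythropoietin receptor, gave 0, 0.135, 0.451 and 0.576 CPM against 5.42, 2.51, 6.53 and 1.89 CPM (log2 fold change 3.68 ± 0.94, adjusted p = 0.0435), again without overlap, and the call ended when any 1 of the 8 libraries was left out (adjusted p up to 0.143). Rhd, the rhesus antigen, gave 0.682, 0.27, 0.246 and 3.17 CPM against 5.99, 7.44, 12.7 and 7.94 CPM (log2 fold change 3.02 ± 0.66, adjusted p = 0.0190). The Rhd call ended without AZ16, V1, V5-2 or V5 (adjusted p up to 0.0771). V19 was the highest vehicle library for Rhd but stayed under every 5-Aza library. Icam4, an adhesion protein of erythroid cells, rose at 1.6 ± 0.38. The Icam4 call ended without AZ10, AZ16, AZ17, V19, V5-2 or V5 (adjusted p up to 0.122). Kel, the Kell blood group protease, which is not on the list and was picked after its values were seen, rose at 4.24 ± 0.92. The Kel call ended without AZ10, AZ16, V5-2 or V5 (adjusted p up to 0.0719). Klf1, the other leading erythroid factor, overlapped with 1.09, 0.945, 0.533 and 2.59 CPM against 6.31, 1.94, 3.72 and 3.7 CPM and did not pass (log2 fold change 1.62 ± 0.54, adjusted p = 0.168), and Rhag, the partner of the rhesus proteins, was at 2.71 ± 0.82 (adjusted p = 0.112). The globin gene Hba-a1 read 0 throughout, so late erythroid cells cannot be followed by it.

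Gata2, the factor of stem cells and of early megakaryocytic and mast cell progenitors, gave 46.9, 49.7, 63.9 and 103 CPM with vehicle and 255, 142, 190.3 and 107 CPM with 5-Aza (log2 fold change 1.4 ± 0.30, adjusted p = 0.0162). V19 came within a few CPM of AZ17. The Gata2 call ended without AZ10, AZ16 or V5 (adjusted p up to 0.0910). The windows before both GATA genes are shown as examples that differ in CG content, and its part in the rise of these genes was not tested. Capitals mark CG, with 2 in Gata1 (chrX:7967911-7968160, minus strand) and 22 in Gata2 (chr6:88193641-88193890, plus strand).
Gata1: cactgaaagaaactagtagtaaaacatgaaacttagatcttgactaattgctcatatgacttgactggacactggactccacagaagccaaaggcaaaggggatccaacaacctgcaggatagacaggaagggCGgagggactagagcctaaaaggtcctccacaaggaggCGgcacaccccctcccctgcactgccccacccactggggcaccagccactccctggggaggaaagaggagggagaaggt
Gata2: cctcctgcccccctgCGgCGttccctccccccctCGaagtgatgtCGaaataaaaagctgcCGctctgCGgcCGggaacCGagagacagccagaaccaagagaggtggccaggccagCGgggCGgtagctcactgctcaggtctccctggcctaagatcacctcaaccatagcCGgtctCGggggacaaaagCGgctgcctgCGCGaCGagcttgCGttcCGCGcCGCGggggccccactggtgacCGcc
Windows with at least 20 CG made up 17.7% of those of all 27018 genes.

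**Figure D3:**
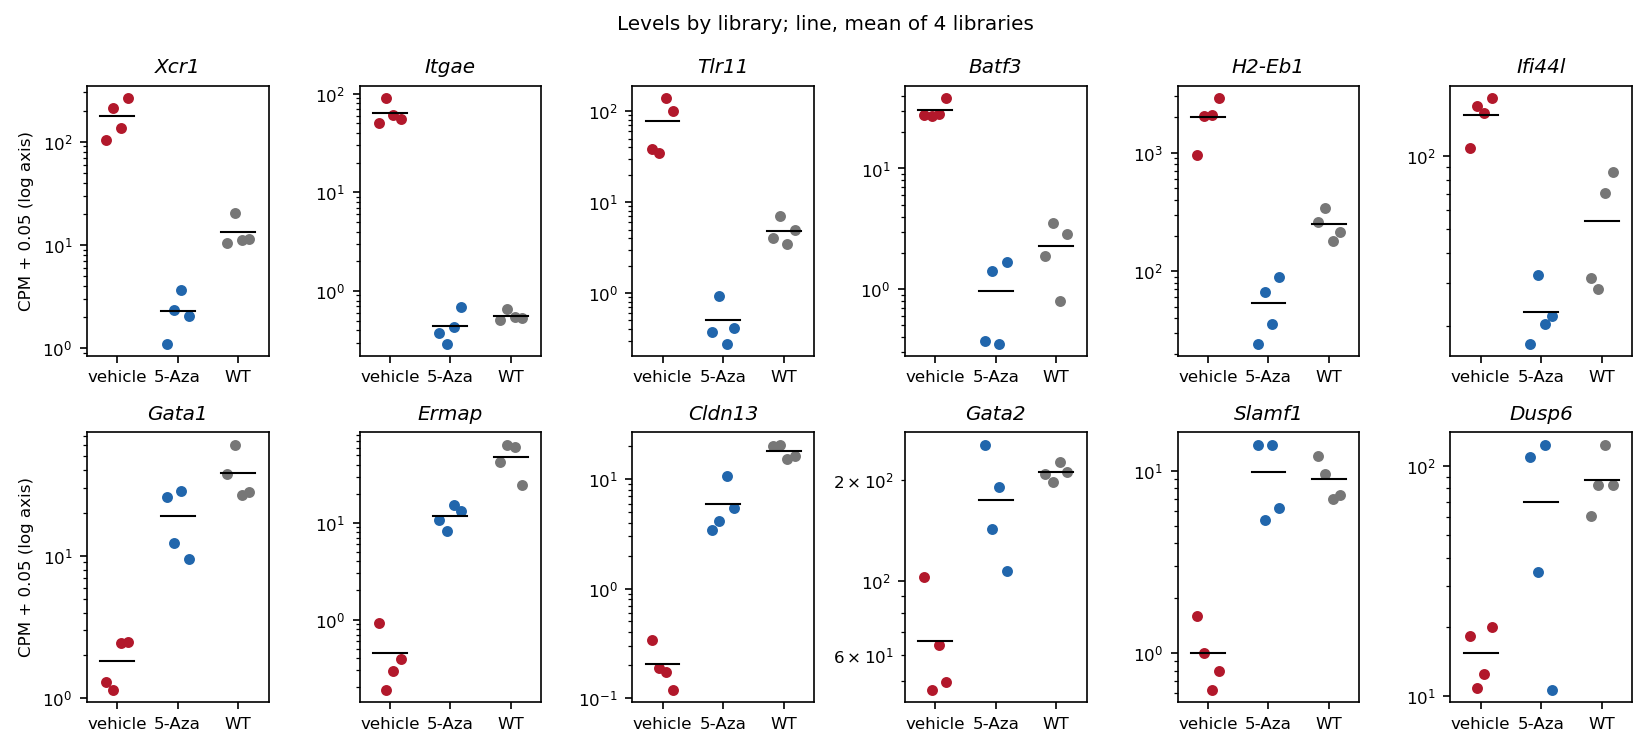
Levels of 12 genes in each library, as CPM plus 0.05 on log axes, with vehicle in red, 5-Aza in blue and WT in grey; points are single libraries and lines the means of 4. The 6 genes of the upper row (dendritic, MHC class II and interferon) lie lower with 5-Aza than with vehicle, those of the lower row have the higher means with 5-Aza, and Dusp6 is the only 1 of the 12 whose groups overlap.

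Of 18 tested megakaryocyte genes 2 rose and 1 fell, with a median of 0.61. Gp9, a subunit of the platelet receptor for von Willebrand factor, gave 6.55, 8.84, 5.58 and 9.6 CPM against 21.9, 18.9, 30.4 and 27.2 CPM (log2 fold change 1.69 ± 0.36, adjusted p = 0.0162), without overlap. The Gp9 call ended without AZ16 or V5-2 (adjusted p up to 0.0738). Slamf1, which encodes CD150, a marker of long-term stem cells as well as of megakaryocyte progenitors, gave 0.954, 0.743, 0.574 and 1.54 CPM against 13.8, 5.34, 13.7 and 6.23 CPM (log2 fold change 3.38 ± 0.72, adjusted p = 0.0173), also without overlap. The Slamf1 call ended without AZ10, AZ16, V5-2 or V5 (adjusted p up to 0.0706). Pf4, the platelet chemokine, overlapped because V1 exceeded AZ11, with 31.1, 4.52, 2.54 and 18.3 CPM against 118, 29.3, 119 and 71.3 CPM (log2 fold change 2.61 ± 0.73, adjusted p = 0.0783). Plek, which encodes pleckstrin of platelets and leukocytes, was the member that fell (log2 fold change -1.16 ± 0.27, adjusted p = 0.0267). The Plek call ended without AZ11, AZ16, AZ17 or V5 (adjusted p up to 0.109). Of 18 genes of mast cells, basophils and eosinophils 2 rose, Gata2 and Fcer1a, and 1 fell, Ear2. Fcer1a, the IgE-binding chain, gave 1.09, 1.62, 0.861 and 1.92 CPM against 12.2, 4.12, 17.8 and 8.12 CPM (log2 fold change 2.94 ± 0.69, adjusted p = 0.0289). The Fcer1a call ended without AZ10, AZ16, V1, V5-2 or V5 (adjusted p up to 0.115). Ear2, an eosinophil ribonuclease, gave 5.45, 1.28, 1.31 and 0.864 CPM against 0.243, 0.404, 0.304 and 0.541 CPM (log2 fold change -2.52 ± 0.63, adjusted p = 0.0407); V1 alone was above 2 CPM and the call ended without AZ10, AZ11, AZ16, AZ17, V1 or V5 (adjusted p up to 0.162).

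Of 24 tested stem cell genes 2 rose and 1 fell, and the median was -0.06, beside -0.05 for all accessions. Hlf, a factor of the most primitive cells in normal marrow, gave 150.1, 162, 121 and 332 CPM against 593, 385, 422 and 305 CPM and overlapped through V19 (log2 fold change 1.16 ± 0.43, adjusted p = 0.237). Mecom, which encodes EVI1, did not overlap but did not pass (log2 fold change 1.2 ± 0.52, adjusted p = 0.338). Gprc5c, a receptor of dormant stem cells that has 3 accessions, was the member that fell, with 14, 11.2, 9.68 and 6.33 CPM against 0.0809, 0.243, 0.0759 and 0 CPM (log2 fold change -6.54 ± 1.0, adjusted p = 0.00229).

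The MAP kinase pathway downstream of FLT3 switches on its own inhibitors, the dual-specificity phosphatases and Sprouty proteins, and the ETV factors. Of 25 tested genes of MAP kinase feedback and of the immediate-early response, 3 rose and 2 fell, and none of the 5 calls held in every fit that left out 1 library. Dusp6, the phosphatase of ERK, gave 10.8, 19.99, 12.4 and 18.2 CPM with vehicle and 109.8, 34.4, 123 and 10.6 CPM with 5-Aza (log2 fold change 2.18 ± 0.52, adjusted p = 0.0297). AZ10 and AZ16 were above 100 CPM, while AZ17 was below every vehicle library. Etv5 gave 1.5, 1.08, 2.46 and 1.15 CPM against 22.6, 4.69, 26.7 and 8.66 CPM (log2 fold change 3.31 ± 0.68, adjusted p = 0.0141), Dusp4 gave 0.136, 0.27, 0.369 and 0.192 CPM against 5.58, 0.323, 5.77 and 0.722 CPM (log2 fold change 3.54 ± 0.89, adjusted p = 0.0405), and Spry4, which did not pass, gave 0, 0.135, 0.0410 and 0.192 CPM against 2.35, 0.162, 3.11 and 0.361 CPM (log2 fold change 3.9 ± 1.03, adjusted p = 0.0576). In Dusp4 and Spry4 AZ11 lay among the vehicle libraries. AZ10 and AZ16 were the highest of the 4 in each of these genes, and in Gem, a small GTPase outside the list, which gave 1.36, 0.405, 0.615 and 1.25 CPM against 47.9, 9.86, 84.1 and 6.23 CPM (log2 fold change 5.41 ± 0.90, adjusted p = 0.00319). The calls ended for Dusp6 without AZ10, AZ16, V19, V1, V5-2 or V5 (adjusted p up to 0.15), for Etv5 without AZ10 or AZ16 (adjusted p up to 0.0645) and for Dusp4 without AZ10, AZ16, V19, V1, V5-2 or V5 (adjusted p up to 0.164); that of Gem held in each fit that left out 1 library, but ended with limma-voom (adjusted p = 0.284) and when V1 and V5-2 were both left out. The members that fell were Atf3, a stress-induced factor, with 5.18, 4.19, 6.4 and 1.92 CPM against 0, 0.404, 0 and 0 CPM (log2 fold change -5.32 ± 1.19, adjusted p = 0.0210), and Klf2, a factor of quiescence, with 24.5, 8.17, 23.4 and 14.9 CPM against 0.162, 3.48, 1.37 and 1.98 CPM (log2 fold change -3.34 ± 0.77, adjusted p = 0.0258). Their calls ended without AZ10, AZ16 or AZ17 (adjusted p up to 0.0943) and without AZ10, AZ16, AZ17 or V1 (adjusted p up to 0.11). With limma-voom the adjusted p was 0.245 for Etv5, 0.422 for Dusp6 and 0.633 for Dusp4, so none of these passed.

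STAT5, the other main arm of FLT3-ITD signalling, drives the SOCS family of feedback inhibitors. Of 18 genes of that list only Bcl6, a repressor of transcription, was called, with 10.2, 30.2, 44.5 and 19.7 CPM against 4.85, 3.48, 5.31 and 3.07 CPM (log2 fold change -2.65 ± 0.57, adjusted p = 0.0173). The Bcl6 call ended without AZ10, AZ11, AZ16 or AZ17 (adjusted p up to 0.0645). Socs2, read from 1 of 4 accessions, gave 9.68, 19.9, 10.5 and 12.3 CPM against 1.86, 5.74, 6.53 and 0.632 CPM (log2 fold change -1.82 ± 0.76, adjusted p = 0.312), and Cish gave 116, 213, 161 and 241 CPM against 57.4, 155, 73.2 and 139 CPM (log2 fold change -0.79 ± 0.46, adjusted p = 0.505). Neither passed, and Cish overlapped between the groups.

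Genes that take up, activate or degrade nucleoside drugs, and the machinery of DNA methylation, hold the drug's own pathway. Of these lists 0 of 30 and 0 of 22 tested genes were called, with medians of -0.32 and -0.16. Among all tested accessions 0.431% were called higher and 1.45% lower, so 0 calls in lists this small is near that share. In the first list 4 genes were lower without overlap and 0 higher, beside 4.26% and 2.83% of all accessions. In the second 1 was lower and 1 higher. Uck2, the kinase that phosphorylates 5-azacytidine first, overlapped with 61.4, 49, 176 and 68.7 CPM against 51.2, 54, 44 and 81.7 CPM (log2 fold change -0.62 ± 0.46, adjusted p = 0.623), V5-2 being the only high library. Dck, the kinase of deoxycytidine and of decitabine, overlapped with 234, 287, 193 and 197 CPM against 198, 196, 222 and 148 CPM (log2 fold change -0.25 ± 0.21, adjusted p = 0.66). Samhd1, which degrades deoxynucleotides, did not overlap but did not pass (log2 fold change -1.6 ± 0.52, adjusted p = 0.145). Slc29a1, the nucleoside transporter ENT1, was at -0.62 ± 0.72 (adjusted p = 0.779). Tet2 overlapped with 118, 94, 58.7 and 156 CPM against 88.8, 107, 59.6 and 36.4 CPM (log2 fold change -0.55 ± 0.31, adjusted p = 0.496). Dnmt1, Dnmt3a, Dnmt3b and Uhrf1 did not pass the filter on low counts in this table and were not tested. Their absence is not read as low expression, since Kit also read 0 in these cells, which were sorted for its protein.

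Genes known to be held silent by DNA methylation were little represented: of 10 tested germline genes and 17 tested imprinted genes 0 were called, with medians of 0.15 and 0.28. A further 41 listed germline and 27 listed imprinted genes were not tested, so these lists say little about silent genes. Here and in the lists named below, a count of 0 is near the share over all tested accessions (0.431% called higher, 1.45% lower). With DESeq2 1 germline gene was called higher, and with log2 FPKM plus 1 also 1. Genes of the testis outside the germline list were called, and their values are given with the other observations. The lists of S phase, G2/M, DNA damage response, MHC class I, ribosomal proteins, Hox genes, p53 targets (30 tested, median -0.29) and the unfolded protein response (27 tested, median -0.56) also had 0 calls. In data simulated after these libraries, 16.4% of 2-fold, 83.6% of 4-fold and 95.5% of 8-fold changes were called for this comparison. Changes of 2-fold in such lists would thus mostly be missed. The shares are not split by level or by group, although vehicle libraries were less alike than 5-Aza libraries. The germline list summed to only 43.4 to 65.7 CPM with vehicle and 63.9 to 83.5 CPM with 5-Aza. Whether the shares hold for genes at low levels was not tested, so larger changes could be missed there too.

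**Figure D4:**
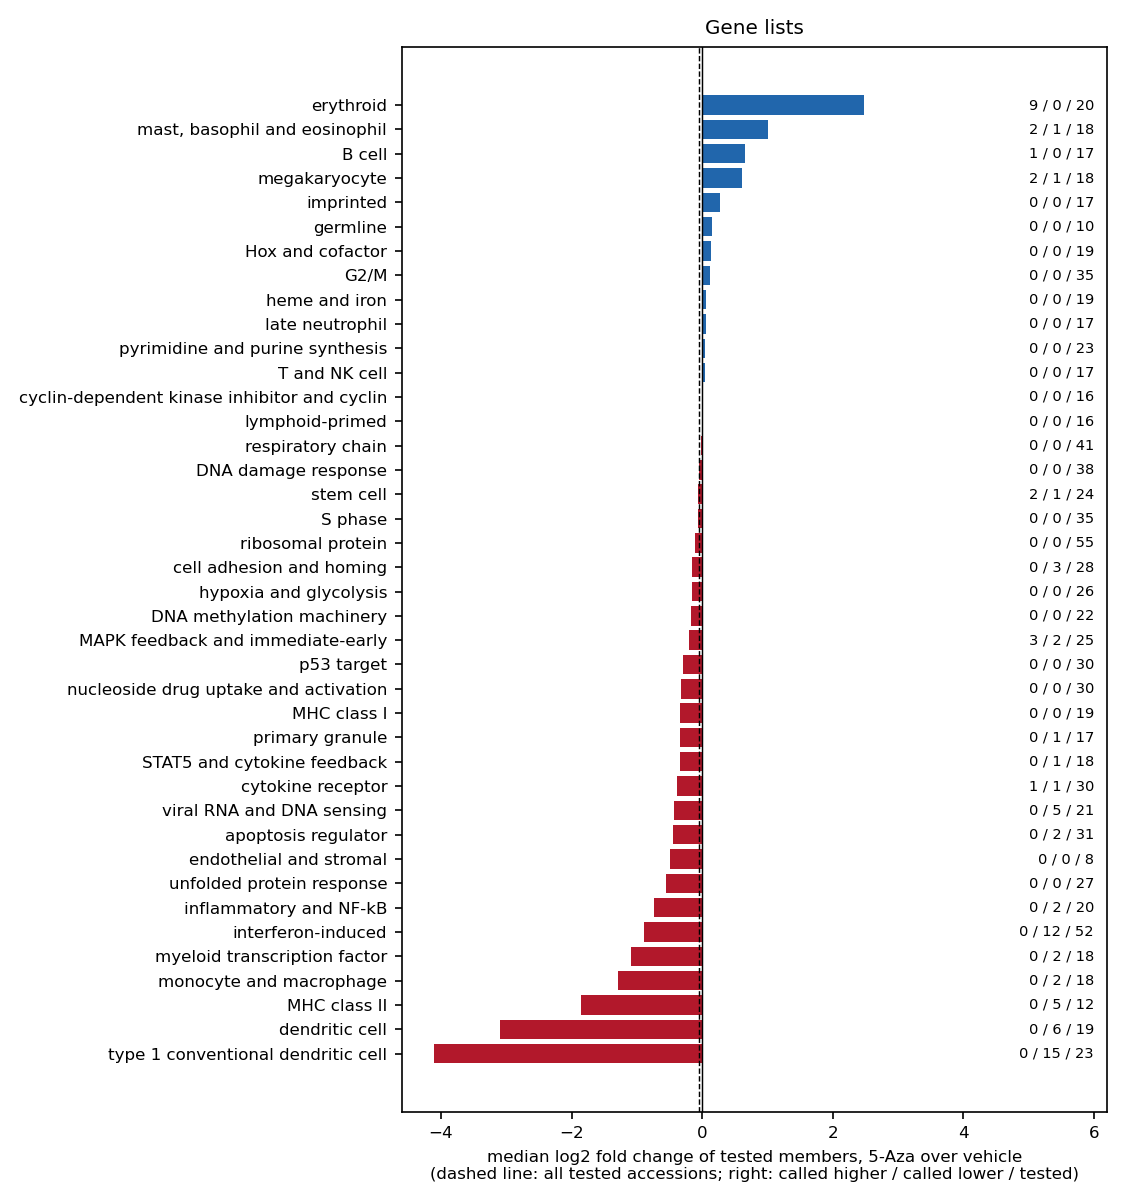
Median log2 fold change of 5-Aza over vehicle for the tested members of 40 gene lists; the dashed line is the median of all 11830 accessions (-0.05), and the numbers at the right give members called higher, called lower and tested. The erythroid list (9 higher, 0 lower, 20 tested) is at 2.48 and the list of type 1 conventional dendritic cells (0, 15, 23), drawn up after the leading genes were seen, is at -4.10.

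The rule for named genes also gave genes on none of these lists. Slc16a11, a transporter of the monocarboxylate family, gave 0.136, 0.135, 0.492 and 1.54 CPM with vehicle and 11.7, 17.1, 52.9 and 30.9 CPM with 5-Aza (log2 fold change 5.61 ± 0.84, adjusted p = 0.00229). Tgfbr3, the co-receptor betaglycan, gave 1.77, 6.28, 9.02 and 5.85 CPM against 54.2, 26.6, 54 and 21.3 CPM (log2 fold change 2.74 ± 0.43, adjusted p = 0.00243). The groups did not overlap in either gene, and both calls held in each fit that left out 1 library; with limma-voom Slc16a11 did not pass (adjusted p = 0.0750). Cavin2, a caveolar protein, rose at 3.89 ± 0.82. The Cavin2 call ended without AZ10 or AZ16 (adjusted p up to 0.0653). Mybpc3, a sarcomere protein, rose at 3.25 ± 0.70. The Mybpc3 call ended without AZ16 (adjusted p up to 0.0830). Rec8, the meiotic cohesin subunit, gave 0.409, 3.78, 2.99 and 2.21 CPM against 18.3, 12.5, 24.1 and 3.88 CPM (log2 fold change 2.6 ± 0.62, adjusted p = 0.0299). The Rec8 call ended without AZ10, AZ11, AZ16, V19, V1 or V5-2 (adjusted p up to 0.123). Among the lower genes, Hepacam2 was at -5.77 ± 1.1, Phf11a at -5.76 ± 1.03 and Asb2, a ubiquitin ligase subunit, at -7.14 ± 1.42; only the Asb2 call ended when a library was left out, without AZ10 or AZ16 (adjusted p up to 0.0634). Cd79a, a B cell receptor chain on the B cell list, was called higher (log2 fold change 3.02 ± 0.77, adjusted p = 0.0448) but read 6.07 CPM in AZ16 and at most 1.35 CPM in the other 7 libraries. The Cd79a call ended without AZ11, AZ16, AZ17, V19, V1, V5-2 or V5 (adjusted p up to 0.328).

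WT cells of the same gate give a reference for these levels, although the arms share it and the comparisons are not independent. The vehicle group differed from WT in 1199 of 11830 accessions (10.1%) and the 5-Aza group in 203 (1.72%). The order of these counts turned with limma-voom, which gave 860 for vehicle and 2755 for 5-Aza, so it is not read as a difference between the arms. The second count was 100, 87, 93 and 73 without AZ10, AZ11, AZ16 and AZ17 in turn, and 84, 81 and 83 without the WT libraries 1, 3 and 4 in turn, which took the first count to 638, 563 and 503. Xcr1 read 10.4, 20.2, 11.1 and 11.4 CPM in the 4 WT libraries, between the arms; its log2 fold change was 3.74 ± 0.84 (adjusted p = 0.00894) for vehicle against WT and -2.57 ± 0.85 (adjusted p = 0.135) for 5-Aza against WT. Itgae read 0.46, 0.604, 0.495 and 0.483 CPM in WT, at 6.94 ± 1.03 (adjusted p = 0.000384) for vehicle and -0.38 ± 1.1 (adjusted p = 0.89) for 5-Aza. H2-Ab1 read 398, 603, 298 and 288 CPM in WT, at 3.02 ± 0.76 (adjusted p = 0.0174) for vehicle and -1.6 ± 0.73 (adjusted p = 0.282) for 5-Aza. These 3 genes were thus higher than WT with vehicle, and with 5-Aza the difference from WT did not pass. On the erythroid side, Gata1 read 37.4, 60.3, 26.7 and 28 CPM in WT, at -4.37 ± 0.55 (adjusted p = 9.01e-05) for vehicle and -1.0 ± 0.47 (adjusted p = 0.304) for 5-Aza. Ermap read 42, 64, 61.2 and 24.7 CPM in WT, at -6.91 ± 0.80 (adjusted p = 4.29e-05) for vehicle and -2.02 ± 0.61 (adjusted p = 0.0978) for 5-Aza, and Gata2 read 209, 197, 227 and 211 CPM, at -1.68 ± 0.30 (adjusted p = 0.00174) for vehicle and -0.28 ± 0.29 (adjusted p = 0.659) for 5-Aza. A p that misses the threshold does not show that 5-Aza and WT libraries were alike: all 4 5-Aza libraries read Xcr1, H2-Ab1 and Ermap under every WT library. Itgae, Gata1 and Gata2 overlapped between 5-Aza and WT.

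Some genes did not follow that order. Ccl3 read 24.9, 25.1, 42.2 and 46.4 CPM in WT and was at -0.37 ± 0.52 (adjusted p = 0.69) for vehicle and -3.45 ± 0.59 (adjusted p = 0.00266) for 5-Aza, and Irf4 read 7.58, 8.0, 6.61 and 6.93 CPM and was at 0.02 ± 0.43 (adjusted p = 0.977) and -2.56 ± 0.47 (adjusted p = 0.00525). Both passed as lower than WT with 5-Aza, and neither passed with vehicle. Samd9l was at 0.40 ± 0.26 (adjusted p = 0.323) for vehicle and -1.03 ± 0.26 (adjusted p = 0.0458) for 5-Aza. Siglech read 23.7, 20.4, 31.1 and 25.9 CPM in WT and was at -2.16 ± 1.09 (adjusted p = 0.209) for vehicle and -5.25 ± 1.29 (adjusted p = 0.0408) for 5-Aza. Socs2 and Cish were above WT in both arms: Socs2 at 6.13 ± 0.98 (adjusted p = 0.000734) and 4.31 ± 0.94 (adjusted p = 0.0219), Cish at 2.66 ± 0.48 (adjusted p = 0.00210) and 1.87 ± 0.47 (adjusted p = 0.0456). Cd79a read 84.5, 73.4, 78.4 and 59.4 CPM in WT and was far lower in both arms, at -8.04 ± 0.85 (adjusted p = 1.22e-05) and -5.02 ± 0.70 (adjusted p = 0.000586).

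**Figure D5:**
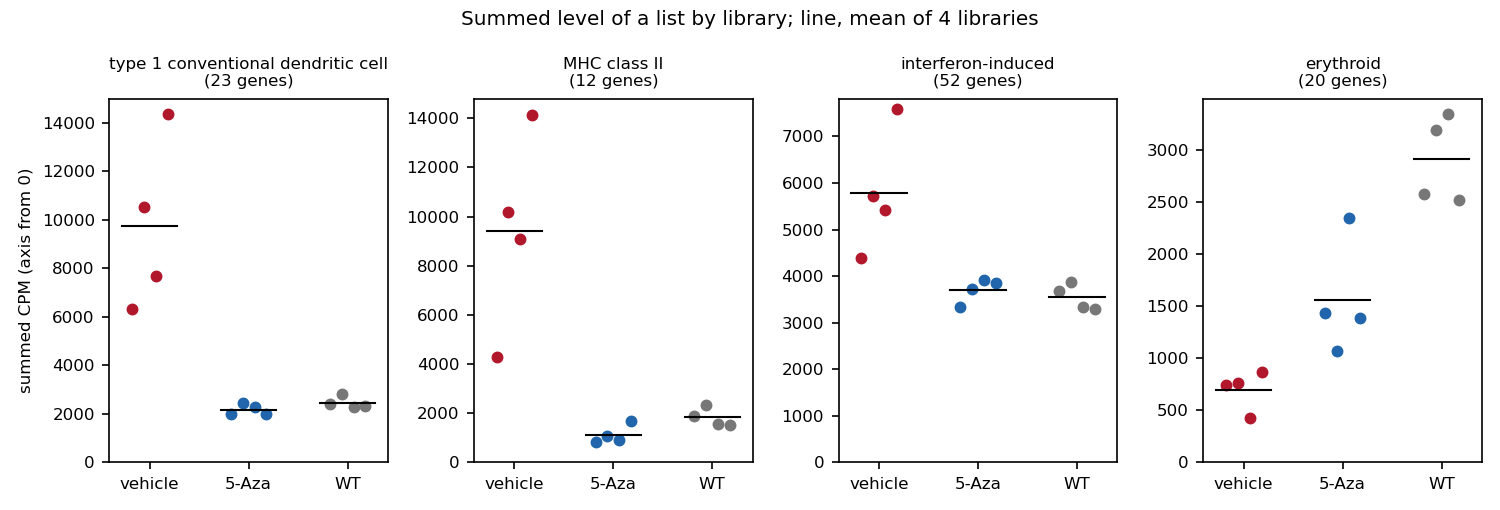
Summed CPM of the tested members of 4 gene lists in each vehicle (red), 5-Aza (blue) and WT (grey) library, on linear axes from 0; lines are means of 4 libraries. In the first 3 lists every vehicle library is above every 5-Aza library, and in the erythroid list every 5-Aza library is above every vehicle library and under every WT library.

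The response to 5-Aza was also set against the response of Idh2 R140Q;Flt3-ITD mice to AG-221, as the difference of both log2 fold changes; drug and genotype change together here and cannot be told apart. The difference passed for 27 of 11830 accessions (0.228%), and this count rested on single libraries of the other genotype, being 0 without V3-2, 1 without V3 and 644 without V9. It was 12, 16 and 9 without AZ10, AZ11 and AZ16, 229 without V5-2 of the vehicle libraries here and 61 without AG1. In the other genotype the type 1 dendritic list summed to 18829 CPM in AG13, against 3517, 2379 and 3217 CPM in AG12, AG1 and AG8. With vehicle it summed to 15113 CPM in V9, against 3580 and 5785 CPM in V3-2 and V3. The labels do not say whether V3 and V3-2 share an animal. The weight of single libraries in the changes with AG-221 below was not tested. Itgae fell with 5-Aza and was at 0.14 ± 0.82 (adjusted p = 0.928) with AG-221, a difference of -7.45 ± 1.36 (adjusted p = 0.0187). Tlr11 was at -0.80 ± 0.78 (adjusted p = 0.499) with AG-221, a difference of -6.62 ± 1.27 (adjusted p = 0.0300), and Gpr141b was at -0.94 ± 0.83 (adjusted p = 0.457), a difference of -6.73 ± 1.39 (adjusted p = 0.0434). Ccl3 moved in opposite directions, at 2.02 ± 0.61 (adjusted p = 0.0416) with AG-221, a difference of -5.11 ± 0.85 (adjusted p = 0.0140). So did the interferon-induced Ifit1, at 1.87 ± 0.42 (adjusted p = 0.0154) with AG-221 and a difference of -3.52 ± 0.56 (adjusted p = 0.0140), and Ifi44, at 1.64 ± 0.49 (adjusted p = 0.0414) and -4.02 ± 0.66 (adjusted p = 0.0140). Slc16a11 rose with 5-Aza and was at -1.36 ± 0.96 (adjusted p = 0.346) with AG-221, a difference of 6.97 ± 1.24 (adjusted p = 0.0166). For Gata1 the difference did not pass, at 2.65 ± 0.72 (adjusted p = 0.112), nor did it for Ermap, at 2.27 ± 1.02 (adjusted p = 0.297), or Xcr1, at -5.88 ± 1.25 (adjusted p = 0.0521).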

How the data were processed

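The submitters' processing notes list STAR 2.4.0f1, Subread 1.4.5-p1 with featureCounts, and the mouse build mm9. Libraries were made from polyA RNA with a SMARTer Ultra Low Input kit, per the labels' protocols. Unnormalized counts and FPKM were deposited by the authors in separate tables for 19 libraries, with RefSeq accessions as rows; strand settings are not given in the sources used here. Columns were joined to groups by their headings and all were used (0 left out). Of 33862 accessions 33485 were named from RefSeq and 188 from GENCODE. Genes with several accessions can lose reads in this counting, and the accession with the highest mean stood for a gene.

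Counts of all 19 libraries were fitted with 5 group means (edgeR 4.0.16 in R 4.3.3, filterByExpr, TMM factors, quasi-likelihood test, 14 residual degrees of freedom, biological coefficient of variation 42.9%). CPM use library totals times TMM factors; values are log2 fold change ± standard error. Folds against a group at 0 use a floor of 3 counts summed over the group. The 8 members and the 40 lists were chosen with earlier results of these data known. Names came from a fixed set of 22 genes, the 14 largest called changes per direction that did not overlap and averaged at least 5 CPM in a group, the 4 smallest p of each list, and the difference of drug responses; 37 of the 103 genes printed are outside it and were picked after their values were seen, and a few genes are not reported here. Alternatives were RLE factors, other filters, DESeq2 1.42.0, limma 3.58.1 (voom with quality weights; log2 FPKM plus 1 or 0.1), the 8 libraries alone, counts summed per gene, a threshold of 0.1 and single libraries left out; those on V1 and V5-2 together and on V5 and V5-2 summed were added after the data were seen. The test was tried on simulated data: 8 of 11329 unchanged accessions were called.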

Additional observations from a re-analysis of the deposited data

Results flagged for a closer look

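Among 204 groups of 4 libraries (5-Aza or vehicle, over the printed genes), 12 held a library far from its other 3; chance alone marks about 1 in 20 groups. In the vehicle group V5 was apart for Batf3 (38.1 CPM), V1 for Cd207 (28 CPM) and Ear2 (5.45 CPM), V19 for Rhd (3.17 CPM), and V5-2 for Tlr9 (31.5 CPM) and Uck2 (176 CPM). In the 5-Aza group AZ16 was apart for Cd79a (6.07 CPM), Hepacam2 (1.21 CPM) and Gbp2 (38.7 CPM, the lowest), AZ11 for Atf3 (0.404 CPM) and Slfn1 (2.02 CPM), and AZ17 for Asb2 (0.271 CPM).

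The response to 5-Aza minus the response to AG-221 passed edgeR's test at an adjusted p under 0.05 for 10 of the genes printed here. On the log2 scale it was -7.45 for Itgae, -6.73 for Gpr141b, -6.62 for Tlr11, -5.11 for Ccl3, -4.02 for Ifi44, -3.52 for Ifit1, -3.49 for Rsad2, -2.50 for Isg15, -1.79 for Gbp2 and 6.97 for Slc16a11. Drug and mouse line cannot be told apart in these differences. Over all accessions 27 passed, but 0 passed without V3-2 and 1 without V3 of the other genotype. None of the 10 thus held without V3-2.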

How the results depend on the processing

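The 222 calls kept their sign wherever tested. Counts of higher and lower calls stayed within 1.5 times of 51 and 171 with RLE factors, other low-count filters, log2 FPKM and counts summed per gene. DESeq2 gave 130 and 332, limma-voom 16 higher, the 8 libraries alone 22 higher, and a threshold of 0.1 gave 89 higher. Among the higher calls printed here, Fcer1a, Cavin2, Kel, Rec8, Cd79a and Ldhc also did not pass with limma-voom (adjusted p 0.308 to 0.719). Chosen after seeing the data, V5 and V5-2 summed gave 26 higher, and leaving out V1 and V5-2 gave 6 and 53. Higher calls made up 23% of all calls, 7.0% with limma-voom and 12.0% with the 8 libraries alone. For 5-Aza against WT (203), DESeq2 gave 635 and limma-voom 2755; for vehicle against WT (1199), DESeq2 gave 1928 and limma-voom 860, so the order of the arms turned with limma-voom. For the difference of drug responses (27), DESeq2 gave 355, limma-voom 92, no filter 185 and a stricter filter 44. Leaving out 1 library gave 9 to 56 higher and 48 to 185 lower calls, 73 to 139 for 5-Aza against WT, 503 to 1410 for vehicle against WT and 0 to 644 for the difference of drug responses. The cause of these shifts was not tested. No paired analysis was possible because the column headings carry no replicate numbers of the labels. Levels under about 1 CPM rest on few counts, and 2-fold changes were mostly under the reach of 4 libraries against 4.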

Other observations

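Genes usually read in testis were among the higher calls; they were picked after their values were seen, and all were near the limit of detection. Ldhc, the sperm form of lactate dehydrogenase, read 0, 0, 0 and 0 CPM in V1, V5, V5-2 and V19 and 1.05, 0.0808, 0.304 and 0.992 CPM in AZ10, AZ11, AZ16 and AZ17, at least 11.5-fold higher with 5-Aza against a bound of 3 counts over the vehicle group (adjusted p = 0.0275, edgeR). Prss50, a testis protease, read 0, 0, 0 and 0 CPM against 0.324, 0.162, 0.379 and 0.722 CPM, at least 7.53-fold higher by the same bound (adjusted p = 0.0341, edgeR). Both were also detected in the WT libraries, at 0.843, 1.06, 0.826 and 1.05 CPM for Ldhc and 1.46, 2.72, 4.95 and 2.5 CPM for Prss50. The Ldhc call ended without AZ10, AZ16, AZ17, V1, V5-2 or V5 (adjusted p up to 0.0914) and the Prss50 call without AZ10, AZ16, AZ17, V19, V1, V5-2 or V5 (adjusted p up to 0.105).

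Nrip1, a nuclear receptor corepressor, read 35.6, 59.6, 24.9 and 65.3 CPM with vehicle and 129.6, 109, 143 and 107 CPM with 5-Aza (log2 fold change 1.4 ± 0.31, adjusted p = 0.0210), without overlap. The Nrip1 call ended without AZ10, AZ16, V1 or V5-2 (adjusted p up to 0.0859). S1pr1, the receptor that guides cells into blood and lymph, read 3.41, 2.23, 1.03 and 4.61 CPM against 23.5, 11, 17.3 and 3.97 CPM (log2 fold change 2.33 ± 0.48, adjusted p = 0.0143), and AZ17 lay among the vehicle libraries. The S1pr1 call ended without AZ10 or AZ16 (adjusted p up to 0.0670). Both were higher in every WT library than in every 5-Aza library.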
